A study of Yarrowia lipolytica with 4 samples.

Results

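The cytochrome P450 genes of the oleaginous yeast Yarrowia lipolytica were examined in the strain F19 and its control strain WLH. They are the 10 genes whose deposited description reads cytochrome P450, of 6797 genes in the table. Both strains derive from PO1f, a host for metabolic engineering that cannot make leucine or uracil, and F19 comes from CRISPR interference work, where inactive Cas9 is guided to a gene and represses it, on tolerance of furfural and acetic acid. The sources used here do not name the gene repressed in F19, so it could not be checked. All cultures, the control included, were kept in leucine-free synthetic medium with 2.4 mM furfural, a toxic aldehyde of plant hydrolysates, for 48 h at 30 °C, and no culture without furfural was analysed here. Poly(A) RNA of whole cultures was sequenced in 2 libraries per strain. The labels give no separate cultures behind them, so p-values reflect the spread between libraries, possibly a technical one, and fewer expressing cells cannot be told apart from less RNA per cell.

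Cytochrome P450 enzymes are heme proteins, mostly anchored in the endoplasmic reticulum, that insert 1 atom of molecular oxygen into a substrate with electrons passed from NADPH by a partner reductase. In Yarrowia lipolytica a large family of them, known as the ALK or CYP52 enzymes, hydroxylates the end carbon of alkanes and fatty acids, which opens the route to fatty alcohols, aldehydes and beta-oxidation. Fungi also need a pair of P450 enzymes for ergosterol, the main membrane sterol: the sterol 14-demethylase, which is the target of azole antifungals, and the sterol C-22 desaturase.

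In F19 the C-22 sterol desaturase BKA90DRAFT_143693 rose, and the P450 genes BKA90DRAFT_135913 and BKA90DRAFT_139610 fell. BKA90DRAFT_135913 fell 28.9-fold, and 3 genes around it on the scaffold fell 3.50-fold to 25.3-fold, among them an enzyme of tyrosine breakdown. This run was singled out after its values were seen, and the part of reads running over between neighbours was not tested. BKA90DRAFT_139610 fell 2.26-fold and BKA90DRAFT_143693 rose 1.52-fold. The calls of the 2 falls held in all 14 alternatives, and the call of the rise did not. The other 5 genes tested did not pass, and 2 genes were too low to test. Of the 8 tested, 1 was higher and 2 were lower, where 25.9% of all 6414 genes tested were higher in F19 and 25.5% lower, and 51.4% in either direction. The count of P450 genes that changed did not stand above the rest of the transcriptome. Calls are from edgeR's quasi-likelihood test with Benjamini-Hochberg adjustment over all genes tested and a threshold of 0.05. The median log2 fold change was 0.14 over the 8 P450 genes and 0.0058 over all genes tested.

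The files annotate these genes unevenly. The 10 genes lie on 10 different scaffolds. The exonic length equals the span in each, so all 10 are annotated without an intron, with 1542 to 1866 bases. BKA90DRAFT_133227 carries the ortholog number and term of the sterol 14-demethylase and BKA90DRAFT_143693 those of the C-22 sterol desaturase. BKA90DRAFT_115977, BKA90DRAFT_158840 and BKA90DRAFT_159462 share a term for oxidoreductases that take up oxygen with a reduced flavin or flavoprotein as donor. BKA90DRAFT_117756 has an ortholog number placed in phenylalanine metabolism. BKA90DRAFT_139610 has an ortholog number placed in aminoacyl-tRNA biosynthesis, which goes against its own description. The remaining 3, BKA90DRAFT_103927, BKA90DRAFT_135913 and BKA90DRAFT_159096, carry the description alone, and no substrate is given for them.

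Levels between genes were compared as FPKM, the deposited counts divided by exonic length and library total. The sterol enzymes dominated the genes described as P450. BKA90DRAFT_143693 reached 460.44 and 360.37 FPKM in F19 replicates 1 and 2, against 210.59 and 247.06 in WLH replicates 1 and 2. BKA90DRAFT_133227 followed with 128.50 and 75.38 FPKM in F19 and 71.66 and 90.12 in WLH. Together they made up 97.8% and 96.7% of the summed P450 FPKM in F19 replicates 1 and 2, and 91.3% and 93.8% in WLH replicates 1 and 2. Among all genes BKA90DRAFT_143693 ranked 312th and 400th by FPKM in F19 and 715th and 594th in WLH. The genes described as P450 outside sterol synthesis ranked 4986th or lower in every library. These shares and ranks leave out genes annotated like a P450 but described as hypothetical. BKA90DRAFT_160004, given below, is such a gene and stood higher per length than every non-sterol member.

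**Figure D1:**
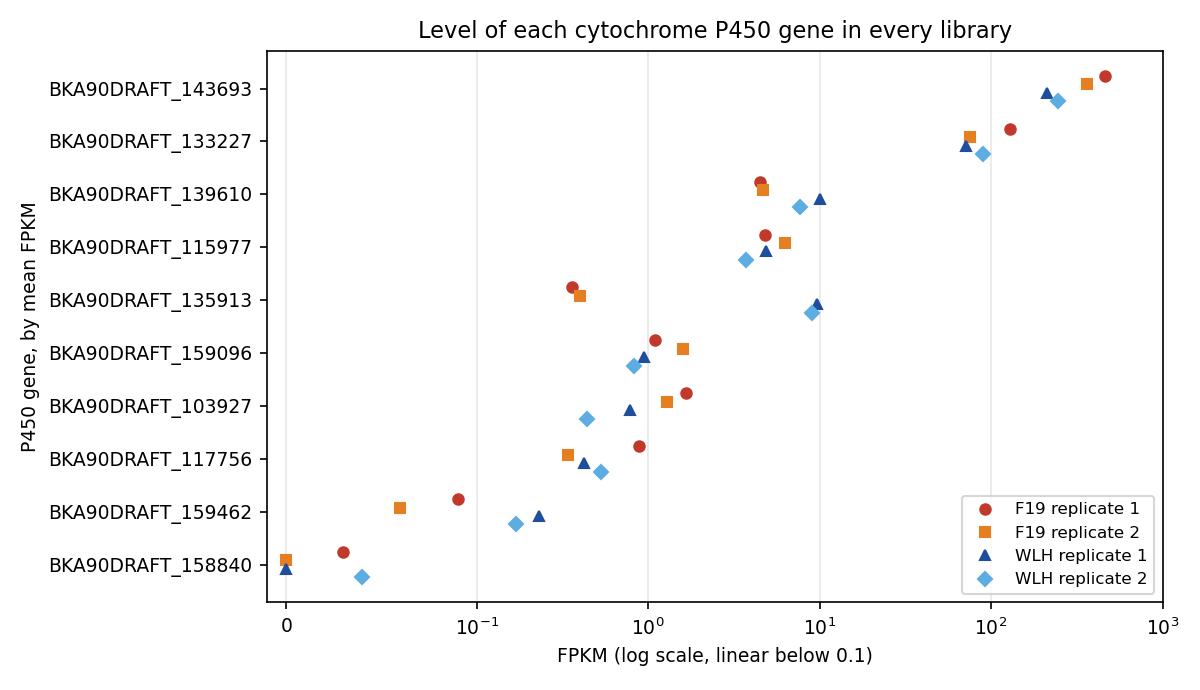
FPKM of each of the 10 P450 genes (vertical axis, ordered by mean FPKM) in the 4 libraries (points; the horizontal axis is logarithmic above 0.1 FPKM and linear below). The sterol genes at the top stand above 70 FPKM in every library, and BKA90DRAFT_135913 is near 0.4 FPKM in F19 and above 9 in WLH.

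The 8 remaining genes were low. Summed, they reached 13.44 and 14.67 FPKM in F19 against 26.95 and 22.43 in WLH. BKA90DRAFT_139610 averaged 4.61 ± 0.134 FPKM in F19 and 8.84 ± 1.68 in WLH, and BKA90DRAFT_115977 averaged 5.55 ± 1.04 and 4.29 ± 0.827 (SD, n = 2 each). BKA90DRAFT_135913 was among the highest of these 8 in WLH, at 9.69 and 9.07 FPKM, and stood at 0.36 and 0.40 in F19. In WLH its libraries lay between those of BKA90DRAFT_139610, so these neighbours in the order were not separated there. BKA90DRAFT_159096 had 1.10 and 1.60 FPKM in F19 and 0.94 and 0.83 in WLH, and BKA90DRAFT_103927 had 1.66 and 1.29 against 0.78 and 0.44. BKA90DRAFT_117756 ranged from 0.34 to 0.88 FPKM over the 4 libraries. The first pair overlapped each other in F19, and the last pair in WLH, so the order of these 3 is not firm.

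At the bottom of the order, BKA90DRAFT_159462 had 3 and 2 counts in F19 and 9 and 5 in WLH, and BKA90DRAFT_158840 had 1 and 0 counts in F19 and 0 and 1 in WLH. Neither passed the filter on low counts. For BKA90DRAFT_158840 every library was under the limit of 3 counts that a count of 0 allows, which for its length is 0.0805 to 0.106 FPKM, so its expression was not detectable at this depth. For BKA90DRAFT_159462 the strains did not overlap, but the F19 libraries were at or under that limit. Tested without a filter on low counts, BKA90DRAFT_159462 did not pass (log2 fold change -1.51, adjusted p = 0.147, edgeR).

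The summed P450 level was 526 ± 107 FPKM in F19 and 334 ± 35.6 in WLH (SD, n = 2 each), a ratio of 1.57. The libraries of the strains did not overlap in this sum. The difference lay in 1 gene: without BKA90DRAFT_143693 the sums were 142 and 90.1 FPKM in F19 and 98.6 and 113 in WLH, which overlapped, and the ratio was 1.10. FPKM carries no correction for the make-up of a library. Scaled with TMM, which sets the typical gene equal between libraries, the summed CPM (counts relative to the TMM-adjusted total of each library) were 899 and 689 in F19 and 556 and 639 in WLH, a ratio of 1.33. Without BKA90DRAFT_143693 the TMM-scaled sums were 218 and 142 in F19 and 183 and 206 in WLH, a ratio of 0.924, so the direction of the remainder turns with the scaling. The strain comparison of single genes below uses this scaling. With plain library totals, the log2 fold change of the median gene moved to 0.24 and calls shifted from 1659 higher and 1635 lower to 2419 and 1066. No tested P450 gene changed direction with that scaling.

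The C-22 sterol desaturase BKA90DRAFT_143693 introduces a double bond into the sterol side chain late in ergosterol synthesis. It lies at 17154 to 18773 on the minus strand of scaffold ML756112.1, where it is the last annotated feature. It had 681 and 547 CPM in F19 and 373 and 433 CPM in WLH. Both F19 libraries lay above both WLH libraries. The log2 fold change was 0.61 ± 0.17 (standard error; adjusted p = 0.0216, edgeR). The call was lost in 3 of the 4 omissions of a library: the adjusted p was 0.0528 without F19 replicate 1, 0.168 without WLH replicate 1 and 0.0839 without WLH replicate 2, with log2 fold changes of 0.43 to 0.77 over the 4 omissions.

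The sterol 14-demethylase BKA90DRAFT_133227 removes a methyl group from lanosterol-type sterols, several steps earlier (ML755979.1, 392606 to 394293, plus strand). It had 198 and 119 CPM in F19 and 132 and 164 CPM in WLH. The F19 libraries lay on either side of both WLH libraries. The log2 fold change was 0.10 ± 0.24 (standard error; adjusted p = 0.756, edgeR), and its sign turned without F19 replicate 1 (-0.32) and without WLH replicate 1 (-0.052). A difference between the strains was therefore not resolved for this enzyme, and whether the 2 sterol P450 genes differ in their response was not tested.

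BKA90DRAFT_135913 showed the largest strain difference of the family (ML755991.1, 193518 to 195375, plus strand). It had 13 and 14 counts in the F19 libraries and 435 and 308 in the WLH libraries, or 0.607 and 0.695 CPM against 19.7 and 18.2. The strains were far apart and the libraries of each strain close together. The log2 fold change was -4.85 ± 0.25 (standard error; adjusted p = 0.000151, edgeR). It stayed past the threshold in all 14 alternatives, from -4.94 to -2.91, the latter on the log2(FPKM + 1) scale, which understates changes of low genes. The authors' deposited table of significant genes also holds it, with a log2 fold change of -4.86 and an adjusted p of 2.47e-42.

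The gene before it on the scaffold, 1073 bases away and on the same strand, is BKA90DRAFT_135911, 4-hydroxyphenylpyruvate dioxygenase, which converts a breakdown product of tyrosine into homogentisate. It had 14.8 and 8.34 CPM in F19 and 313 and 275 CPM in WLH, a log2 fold change of -4.66 ± 0.28 (standard error; adjusted p = 0.000172, edgeR). Per length it was far more abundant than its P450 neighbour, at 210 and 187 FPKM in WLH against 9.69 and 9.07. Before it lies BKA90DRAFT_135910, a hypothetical protein on the same strand, with 2.80 and 1.54 CPM in F19 and 31.6 and 31.0 in WLH, which fell 14.3-fold (adjusted p = 0.000304). The gene after BKA90DRAFT_135913, at 1724 bases, is BKA90DRAFT_135915, described as an NADP-dependent oxidoreductase. It had 158 and 112 CPM in F19 and 435 and 512 in WLH and fell 3.50-fold (adjusted p = 0.000832). In each of these 4 consecutive plus-strand genes the libraries of the strains did not overlap. The share of all genes without such overlap was not counted. All 4 genes passed in all 14 alternatives. The run ended on both sides: BKA90DRAFT_135909 before it, on the other strand, had a log2 fold change of 0.60 and BKA90DRAFT_135918 after it one of 0.79, with adjusted p = 0.0845 and 0.053 (edgeR). As higher, the former passed in 6 of 14 alternatives, among them without F19 replicate 1 (0.0194), and the latter in 8, among them DESeq2 (0.0449) and without F19 replicate 2 (0.0165). The gene BKA90DRAFT_135910 and the run itself were singled out after their values were seen. Reads of neighbouring transcripts that run into each other cannot be told apart in these counts, and their part in the shared fall was not tested.

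**Figure D2:**
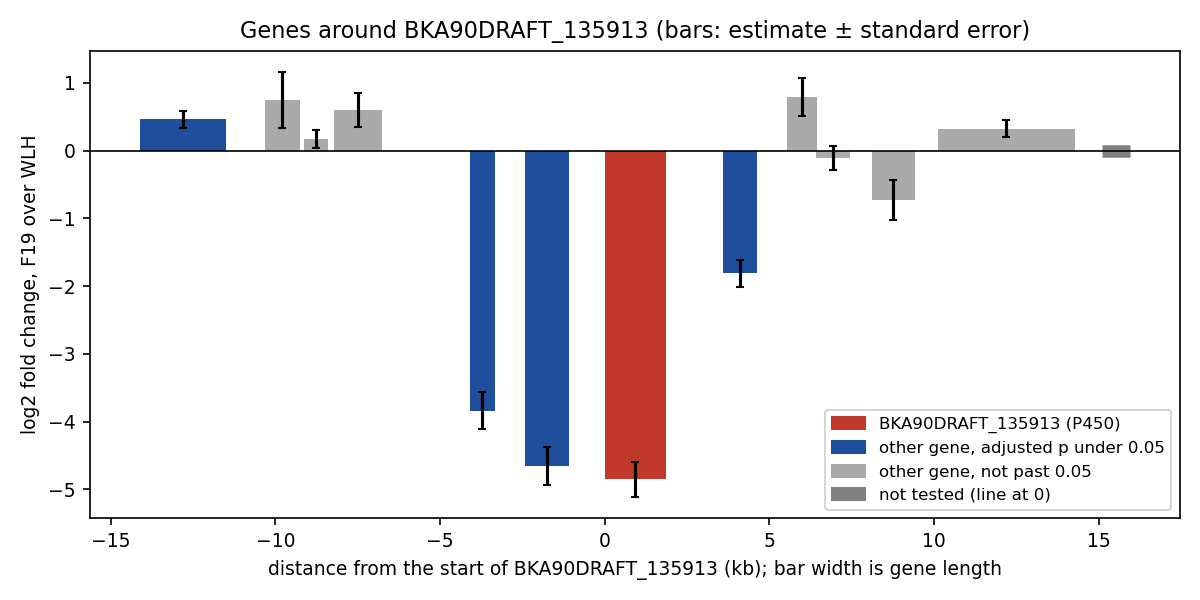
Log2 fold change of F19 over WLH (vertical axis, bars with standard error) for BKA90DRAFT_135913 and the 6 genes on either side, placed by distance from its start in kb, with bar width equal to gene length. The P450 gene and 3 adjoining genes form a run between -4.85 and -1.81, and the genes beyond it lie between -0.73 and 0.79.

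BKA90DRAFT_139610 (ML756020.1, 96129 to 97796, minus strand) had 147 and 148 counts in F19 and 404 and 233 in WLH. In CPM these were 6.86 and 7.35 against 18.3 and 13.8, so both F19 libraries were low and the WLH libraries were higher and further apart. The log2 fold change was -1.18 ± 0.22 (standard error; adjusted p = 0.00434, edgeR). It also passed in all 14 alternatives, from -1.36 to -0.80. The authors' deposited table gives it a log2 fold change of -1.17. These are the 2 P450 genes in that table, which holds 1249 genes with an absolute log2 fold change of at least 1.

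BKA90DRAFT_103927 had the highest fold change among the genes that did not pass. It stood at 2.43 and 1.94 CPM in F19 and 1.36 and 0.769 in WLH, that is 52 and 39 counts against 30 and 13. The strains did not overlap. The log2 fold change was 1.01 ± 0.39 with an adjusted p of 0.0655 (SE; edgeR). It passed with library totals (1.25, adjusted p = 0.0318) and in limma on log2(FPKM + 1) over all genes with a count (0.62, adjusted p = 0.0274). The other tested members that did not pass overlapped between the strains in TMM-scaled CPM. In FPKM the strains did not overlap for BKA90DRAFT_159096, at 1.10 and 1.60 in F19 and 0.94 and 0.83 in WLH. BKA90DRAFT_159096 had a log2 fold change of 0.37 ± 0.35, BKA90DRAFT_115977 of 0.13 ± 0.26 and BKA90DRAFT_117756 of 0.14 ± 0.51 (SE), with adjusted p of 0.408, 0.69 and 0.837 in edgeR. The sign of BKA90DRAFT_115977 turned without F19 replicate 2 (-0.085) and without WLH replicate 2 (-0.054). That of BKA90DRAFT_117756 turned without F19 replicate 1 (-0.68) and without WLH replicate 1 (-0.019).

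**Figure D3:**
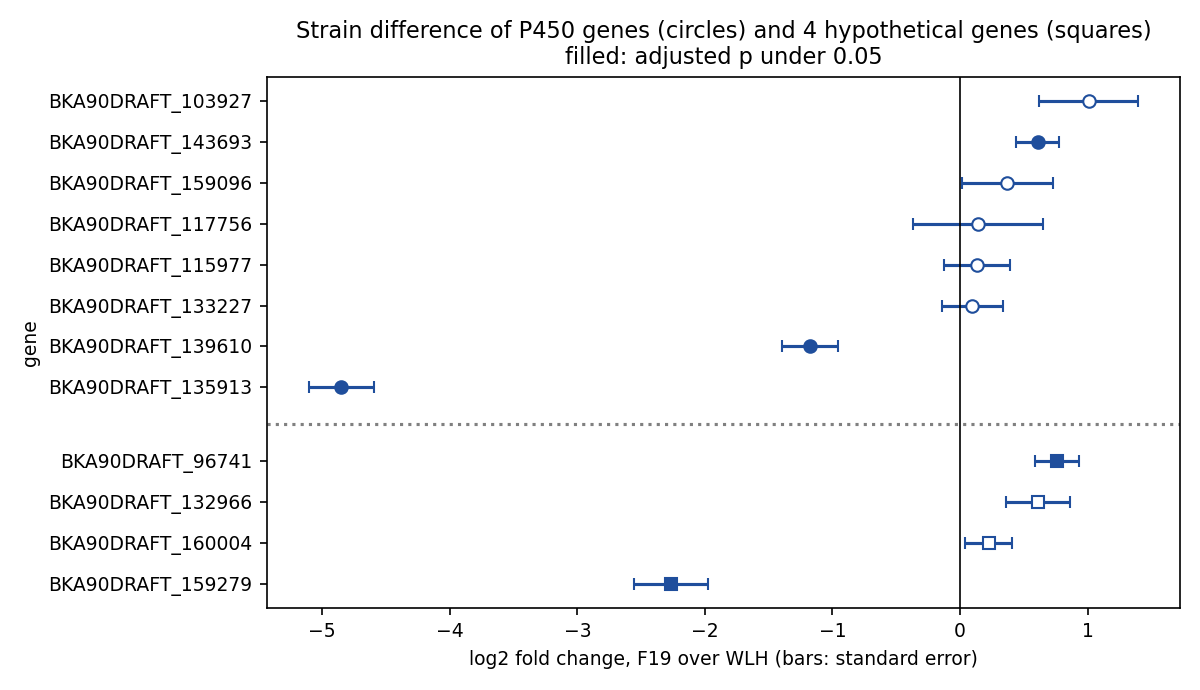
Log2 fold change of F19 over WLH with its standard error (horizontal axis) for the 8 P450 genes tested (circles) and 4 hypothetical genes that share a term with 3 P450 genes (squares); filled symbols passed an adjusted p of 0.05. BKA90DRAFT_135913 at -4.85 lies apart from the others, which range from -1.18 to 1.01 among the P450 genes.

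The description does not gather every gene that the files annotate like a P450. The oxygen-inserting term of BKA90DRAFT_115977, BKA90DRAFT_158840 and BKA90DRAFT_159462 is carried by 7 genes in all, and the other 4 are described only as hypothetical proteins. These 4 were found after the values were seen and are given as a description. Their lengths, 1606 to 1799 bases, fall within the range of the P450 genes. BKA90DRAFT_160004 had the highest level per length, 22.89 to 37.01 FPKM. It had 42.1 and 59.5 CPM in F19 and 44.5 and 42.5 in WLH, and did not pass (adjusted p = 0.332, edgeR); without F19 replicate 1 its adjusted p was 0.0477, and without F19 replicate 2 its log2 fold change was -0.037. It lies 1840 bases from BKA90DRAFT_132966 on the same strand of ML755978.1, with no annotated gene between them. BKA90DRAFT_132966 had 7.84 and 8.44 CPM against 6.15 and 4.44 and did not pass either (adjusted p = 0.076), though it did with library totals (0.0241). BKA90DRAFT_96741 rose 1.69-fold, from 17.9 and 16.3 CPM in WLH to 25.8 and 32.1 in F19 (adjusted p = 0.0104), a call lost without WLH replicate 1 (0.0541) and without WLH replicate 2 (0.0826). BKA90DRAFT_159279 fell 4.80-fold, from 20.4 and 15.4 CPM in WLH to 4.62 and 2.83 in F19 (adjusted p = 0.00125). Of these 4 genes, 1 rose, 1 fell and 2 did not pass, beside 25.9% of all genes tested that were higher and 25.5% lower. Counts this small and near those shares give no trait of the group.

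Microsomal P450 enzymes draw electrons from NADPH-cytochrome P450 reductase and in part from cytochrome b5 and its reductase. The reductase gene BKA90DRAFT_139304 had 265 and 256 CPM in F19 and 234 and 273 in WLH. These overlapped, and the log2 fold change was 0.040 ± 0.14 (standard error; adjusted p = 0.825, edgeR), turning to -0.066 without WLH replicate 1. The list of possible electron donors, drawn by ortholog number and description, holds 8 genes. Among them, the cytochrome b561 gene BKA90DRAFT_134083 joined by the letters of its description. It belongs to a transmembrane family that does not serve P450 enzymes. Among the other 7 genes, 3 fell and 4 did not pass, and 0 rose, beside 25.5% of all genes tested that were lower. The median log2 fold change was -0.41 over these 7 and -0.69 over all 8 genes. NADH-cytochrome b5 reductase 2, BKA90DRAFT_137483, fell 3.02-fold, from 547 and 485 CPM to 113 and 229 CPM (adjusted p = 0.00526), and 4.53-fold without F19 replicate 2. In Saccharomyces cerevisiae the enzyme of that name is mitochondrial. NADH-cytochrome b5 reductase 1, BKA90DRAFT_140746, had 201 and 215 CPM in F19 and 246 and 267 in WLH and did not pass (adjusted p = 0.088).

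Of the 4 cytochrome b5-like genes, 2 fell and 2 did not pass. Their description names a domain and does not show that each protein passes electrons to P450 enzymes. BKA90DRAFT_139441 fell 2.04-fold, from 118 and 122 CPM to 59.99 and 57.5 (adjusted p = 0.00088, edgeR). BKA90DRAFT_134513 fell 1.97-fold (adjusted p = 0.00406). BKA90DRAFT_138487 and BKA90DRAFT_85079 did not pass, with log2 fold changes of -0.41 ± 0.19 and 0.17 ± 0.19 (standard error; adjusted p = 0.108 and 0.48). Without F19 replicate 1 BKA90DRAFT_138487 passed (adjusted p = 0.0322), and without WLH replicate 1 the value of BKA90DRAFT_85079 was -0.026. BKA90DRAFT_134083 itself fell 4.79-fold (adjusted p = 0.00055).

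Each P450 enzyme holds a heme, so the genes of heme synthesis were read beside them. Among 8 genes, 6 fell and 2 did not pass, and 0 rose, beside 25.5% of all genes tested that were lower, with a median log2 fold change of -0.71 against 0.0058 over all genes. Coproporphyrinogen oxidase BKA90DRAFT_132485, an oxygen-dependent late step, had the largest fall, 3.05-fold, from 394 and 437 CPM to 167 and 105 (adjusted p = 0.00167, edgeR). Ferrochelatase BKA90DRAFT_135590, which inserts the iron, fell 2.31-fold, from 966 and 879 CPM to 400 and 398 (adjusted p = 0.00102). Protoporphyrinogen oxidase BKA90DRAFT_137139, between them in the pathway, fell 2.12-fold (adjusted p = 0.0018). These last 3 steps of the pathway passed in all 14 alternatives.

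Of the 5 earlier heme steps, 3 fell and 2 did not pass. Whether early and late steps differ was not tested. Aminolevulinate synthase BKA90DRAFT_134940, the entry step, fell 1.54-fold (adjusted p = 0.0105, edgeR), porphobilinogen synthase BKA90DRAFT_135502 fell 1.65-fold (0.0195) and uroporphyrinogen decarboxylase BKA90DRAFT_147961 fell 1.62-fold (0.00561). Porphobilinogen deaminase BKA90DRAFT_133925 and uroporphyrinogen III synthase BKA90DRAFT_135266, the 2 steps in between, had log2 fold changes of -0.12 ± 0.14 and 0.029 ± 0.18 (standard error; adjusted p = 0.52 and 0.901). Both had libraries of the strains that overlapped, and their signs turned when 1 library was left out: to 0.025 without F19 replicate 1 for the former, and to -0.15 without F19 replicate 2 and -0.040 without WLH replicate 1 for the latter. That of BKA90DRAFT_133925 also turned with library totals (0.12). The 3 calls of the earlier steps were lost in part when a WLH library was left out: without WLH replicate 1 the adjusted p was 0.0671 for BKA90DRAFT_134940 and 0.0783 for BKA90DRAFT_135502, and without WLH replicate 2 it was 0.0852, 0.122 and 0.0616 for BKA90DRAFT_134940, BKA90DRAFT_135502 and BKA90DRAFT_147961, so 3 genes fell there. Library totals also ended the calls of BKA90DRAFT_134940 (0.0582) and BKA90DRAFT_135502 (0.0857), and the 3 limma settings, fitted to log2 FPKM with differing pseudocounts and filters, that of BKA90DRAFT_135502.

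**Figure D4:**
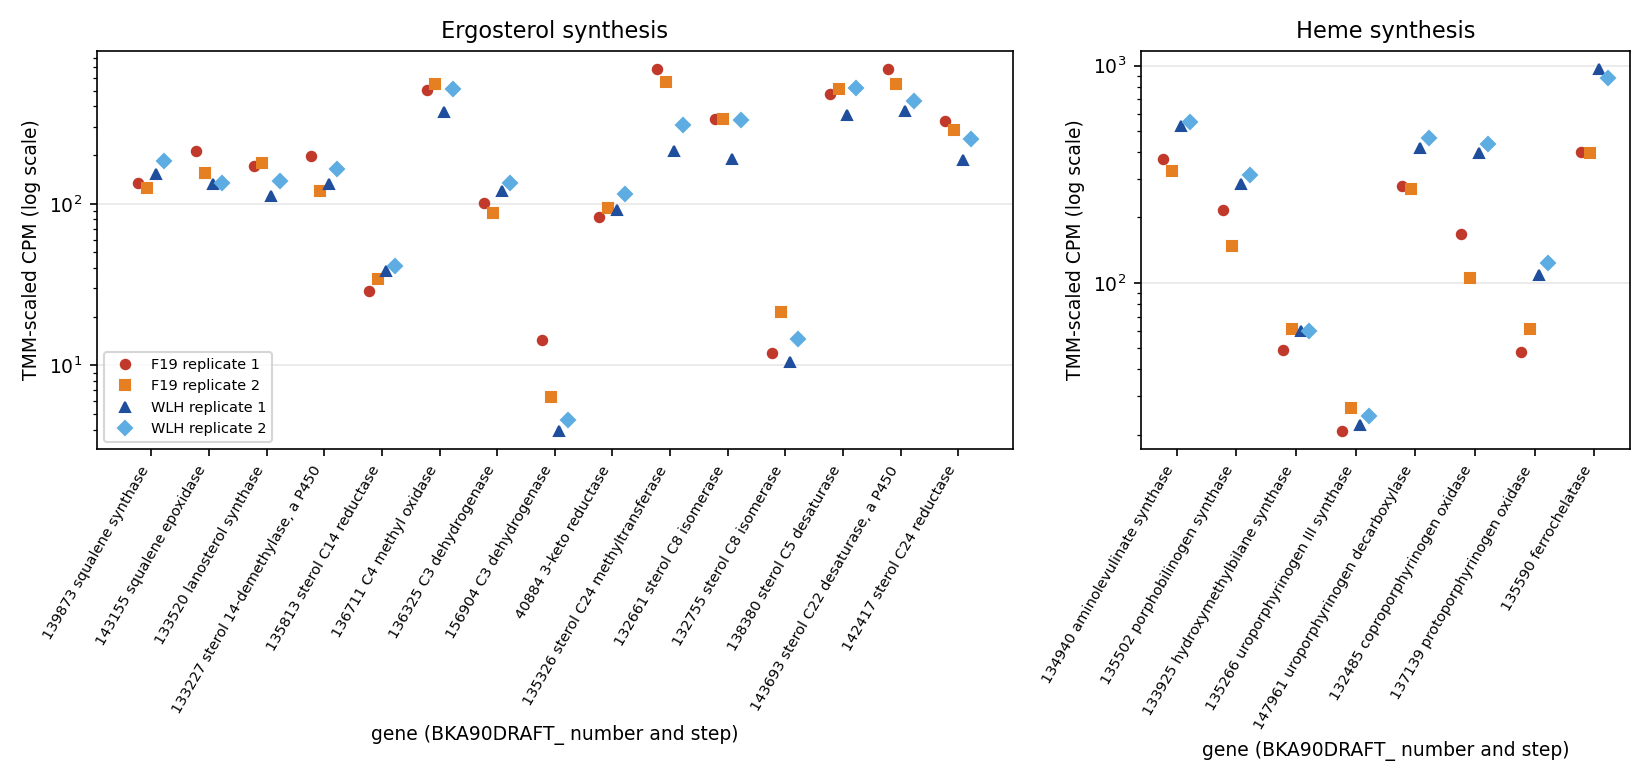
TMM-scaled CPM on a log axis in the 4 libraries for the genes of ergosterol synthesis, which hold the 2 sterol P450 genes (left), and of heme synthesis (right), in pathway order. Libraries should be compared within a gene, since CPM is not divided by length. Of the 8 heme genes 6 were called lower in F19, beside 25.5% of all genes tested. Of the 15 sterol genes 4 were called higher and 1 lower, beside 25.9% and 25.5% of all genes tested. The C-24 methyltransferase and the C-22 desaturase are among those higher in both F19 libraries than in both WLH libraries. Squalene synthase, the C-14 reductase and the C-3 dehydrogenase BKA90DRAFT_136325 are among those lower in both. The share of all genes that lie apart in this way was not counted.

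The 2 sterol P450 genes belong to a list of 15 genes that lead from farnesyl diphosphate to ergosterol. Among them 4 rose, 1 fell and 10 did not pass. The median log2 fold change was 0.36, against 0.0058 over all genes tested. Of all genes tested 25.9% were higher, 25.5% lower and 51.4% either. In the main result the share of sterol genes that rose was thus near the background, and the share that fell was below it. The largest change among genes with an enzyme description was that of sterol 24-C-methyltransferase BKA90DRAFT_135326, which adds the side-chain methyl group. It had 683 and 569 CPM in F19 and 211 and 308 CPM in WLH, a log2 fold change of 1.27 ± 0.21 (standard error; adjusted p = 0.00305, edgeR), and passed in all 14 alternatives. Lanosterol synthase BKA90DRAFT_133520, which closes the sterol rings, rose 1.39-fold (adjusted p = 0.0288). That call was lost without F19 replicate 1 (0.0534), F19 replicate 2 (0.0735) or WLH replicate 1 (0.185). The fourth rise, 2.45-fold, was that of BKA90DRAFT_156904, a hypothetical protein with the ortholog number of the C-3 dehydrogenase, at 14.4 and 6.40 CPM in F19 and 3.93 and 4.62 in WLH. Its adjusted p of 0.0296 was 0.163 or 0.118 with WLH replicate 1 or 2 left out. With F19 replicate 1 left out it was 0.143, and the log2 fold change was 0.58.

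The better described C-3 dehydrogenase, BKA90DRAFT_136325, was the 1 sterol gene that fell, 1.35-fold (adjusted p = 0.0293, edgeR), and did not pass without F19 replicate 2 (0.124), WLH replicate 1 (0.0732) or WLH replicate 2 (0.171), or with library totals (0.259) or in the 3 limma settings. Squalene epoxidase BKA90DRAFT_143155, the oxygen-dependent step before ring closure, had 211 and 156 CPM in F19 and 132 and 135 in WLH (adjusted p = 0.0524). As higher, it passed in 8 of 14 alternatives, among them DESeq2 (0.0397) and library totals (0.015). The final C-24 reductase BKA90DRAFT_142417 had a log2 fold change of 0.48 ± 0.18 (standard error; adjusted p = 0.0568). It passed as higher in 6 of 14 alternatives, among them DESeq2 (0.0325). Squalene synthase BKA90DRAFT_139873 and the C-14 reductase BKA90DRAFT_135813, which acts directly after the demethylase, had negative values of -0.37 ± 0.14 and -0.34 ± 0.15 (standard error; adjusted p = 0.0597 and 0.0979).

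The remaining sterol genes did not pass. The C-4 methyl oxidase BKA90DRAFT_136711 had a log2 fold change of 0.26, the 3-keto reductase BKA90DRAFT_40884 of -0.21, the C-5 desaturase BKA90DRAFT_138380 of 0.18, and the C-8 isomerase genes BKA90DRAFT_132661 and BKA90DRAFT_132755 of 0.36 and 0.42 (adjusted p from 0.256 to 0.484, edgeR). Each of the isomerases passed when 1 library was left out, BKA90DRAFT_132661 without WLH replicate 2 (0.0352) and BKA90DRAFT_132755 without F19 replicate 1 (0.0446), whereas without F19 replicate 2 the latter turned to -0.056. The C-5 desaturase turned to -0.072 without WLH replicate 1. The number of sterol genes that rose was smaller without F19 replicate 1 and smaller still without WLH replicate 1. It was larger in DESeq2 and with the replicate block. There the 4 rises of the main result held, and squalene epoxidase and the C-24 reductase passed as higher too.

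Enzymes that may take up the products of alkane and fatty acid hydroxylation were listed as aldehyde dehydrogenases, acyl-CoA synthetases and genes of peroxisomal beta-oxidation. The ortholog numbers of the aldehyde dehydrogenases were not limited to fatty aldehydes, and enzymes of alcohol oxidation were not listed. Of 19 genes 18 were tested, and 5 rose, 8 fell and 5 missed the threshold, beside 25.9% of all genes tested that were higher and 25.5% lower. The median log2 fold change was -0.18 over the list. One of the falls was that of a semialdehyde dehydrogenase, BKA90DRAFT_139077, an enzyme of amino acid synthesis that joined by its name, and without it the median was 0.042 and 7 of 17 genes fell. The largest falls were those of beta-oxidation genes that stood at 202.19 to 907.87 FPKM in WLH: peroxisomal thiolase BKA90DRAFT_134981 fell from 1363 and 901 CPM to 230.9 and 213, acyl-CoA oxidase BKA90DRAFT_136735 from 963 and 635 CPM to 220 and 188, and acyl-CoA oxidase BKA90DRAFT_142828 from 691 and 473 CPM to 242 and 151. Their adjusted p were 0.000603, 0.000926 and 0.00356 (edgeR). The largest rises were those of genes at 0.48 to 5.39 FPKM in WLH. Acyl-CoA oxidase BKA90DRAFT_155929 rose 3.57-fold, from 12.9 and 6.51 CPM to 29.8 and 40.4 (adjusted p = 0.00358), and 5.39-fold without WLH replicate 1. The aldehyde dehydrogenase BKA90DRAFT_161625 rose 4.16-fold to 2.66 and 6.95 CPM (adjusted p = 0.0137), and 2.32-fold without F19 replicate 2. The hypothetical protein BKA90DRAFT_142377 rose 5.05-fold to 1.35 and 1.29 CPM (adjusted p = 0.00572), has an aldehyde dehydrogenase ortholog number and is annotated with 427 bases. Leaving out WLH replicate 1 ended both of the latter calls (0.0859 and 0.0683), as did leaving out WLH replicate 2 (0.0988 and 0.0505), and in either case 3 genes of the list rose. BKA90DRAFT_139077 fell 1.53-fold (adjusted p = 0.0253), a call lost with WLH replicate 1 (0.0971) or 2 (0.148) left out, with library totals (0.103) and in the 3 limma settings.

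The 10 P450 genes have 19 nearest neighbours, of which 17 were tested. Among these 10 fell, 2 rose and 5 did not pass, beside 25.5% of all genes tested that were lower and 25.9% higher. Outside the run at BKA90DRAFT_135913, 15 neighbours were tested, of which 8 fell, 2 rose and 5 did not pass. BKA90DRAFT_139610 is flanked by BKA90DRAFT_139608 and BKA90DRAFT_163505, hypothetical proteins that fell 1.497-fold and 1.47-fold (adjusted p = 0.0136 and 0.0305, edgeR). Both calls were lost without F19 replicate 2 (0.0571 and 0.0604) or WLH replicate 2 (0.101 and 0.111), and that of BKA90DRAFT_163505 also without WLH replicate 1 (0.184). They were lost as well with library totals (0.0932 and 0.16) and in the 3 limma settings. Next to BKA90DRAFT_103927, the histidine kinase-like ATPase BKA90DRAFT_142370 rose 1.71-fold (adjusted p = 0.00534). Next to BKA90DRAFT_117756, which did not pass, the DNA glycosylase BKA90DRAFT_44992 fell 2.29-fold (adjusted p = 0.00682, and 0.0621 without WLH replicate 1). Its nearer neighbour BKA90DRAFT_176438, a hypothetical protein at 72 bases, fell 2.94-fold at under 1 CPM in every library (adjusted p = 0.04). That call was lost in 8 of the 11 alternatives that tested the gene. It was lost when any 1 library was left out, in DESeq2 (0.184) and with library totals (0.0631). Also without it were the fit with no filter on low counts (0.0554) and limma on log2(FPKM + 1) over all genes with a count (0.095). Next to BKA90DRAFT_159096, the P-loop protein BKA90DRAFT_108556 rose 2.62-fold (adjusted p = 0.0494), a call lost without F19 replicate 2 (1.46-fold, 0.281), WLH replicate 1 (0.134) or WLH replicate 2 (0.231), in the robust fit (0.0535), with a minimum of 20 counts (0.0504) and in the 3 limma settings. Its neighbour on the other side, BKA90DRAFT_134500, a hypothetical protein at 332 bases, fell 1.73-fold (adjusted p = 0.00309) and passed in all 14 alternatives. Both genes that flank the undetected BKA90DRAFT_158840 were expressed: the adaptin-domain gene BKA90DRAFT_141508 at 50.5 to 74.7 CPM and the armadillo-type gene BKA90DRAFT_141510 at 48.1 to 58.8 CPM. BKA90DRAFT_141508 fell 1.32-fold (adjusted p = 0.0424), a call lost when any 1 library was left out (0.0582 to 0.239), with library totals (log2 fold change -0.16, adjusted p = 0.36), in DESeq2 (0.0649) and in the 3 limma settings, and BKA90DRAFT_141510 did not pass (adjusted p = 0.245).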

How the data were processed

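Per the file headers, the authors deposited raw counts and FPKM per gene for 6800 features, and a second table of genes they called significant with mean normalised signal, linear fold, log2 fold change, test statistic (score) and p-value. Feature length is a further column. The tools named in the submitters' processing notes are HISAT2 2.2.1, HTSeq 0.6.1, DESeq2 and cutadapt 1.9.1; the sources used here give no settings, strand use or genome build, and 0 gene identifiers matched the reference gene table. One WLH column is spelled with the letter I for the digit 1. The 3 rows that name no gene held 0.134% to 0.387% of counts and were left out. Library totals were 18268878 to 24165223 counts; limits cover counting error only. Libraries of a strain differed by more than sampling noise (chi-square per degree of freedom 69.8 and 33.8) and were counted separately.

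The tests used edgeR 4.0.16 under R 4.3.3 on the counts: filterByExpr, TMM, quasi-likelihood fit with strain as the only term, two-sided. CPM are TMM-scaled. Standard errors are log2 fold changes over the root of F. The fit was tested on simulated data. The P450 genes, the lists and the tests were chosen with earlier results of these data known. The lists come from ortholog numbers and descriptions. Named genes are all P450, electron donor, sterol and heme genes, the 6 called oxidation genes of largest change, and described neighbours within 2000 bases; others were named after their values were seen. Alternatives were DESeq2 1.42.0, limma 3.58.1 on log2(FPKM + 1) or log2(FPKM + 0.1), other scalings and filters, a replicate block and leaving out each library, where a lone library was taken to vary like the other strain's. Similar gene copies and overlapping transcripts cannot be told apart in these counts.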

Additional observations from a re-analysis of the deposited data

How the results depend on the processing

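The calls of BKA90DRAFT_135913 and BKA90DRAFT_139610 held in all 14 alternatives, so the number of P450 genes called lower stayed at 2. The number called higher, 1 in the main result, was 2 with library totals, with limma on log2(FPKM + 1) over all genes with a count and with the replicate block, where BKA90DRAFT_103927 joined (adjusted p = 0.0447 with the block), and 0 to 1 when a library was left out. The summed P450 ratio of 1.57 was 1.10 without BKA90DRAFT_143693, 1.67 in TPM, 1.33 in TMM-scaled CPM, an alternative added after seeing the data, and 1.35 to 1.80 with a library left out.

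Over all genes, 1659 higher and 1635 lower calls became 810 to 1509 and 860 to 1587 with a library left out. The lower calls were 1066 with library totals and 1056, 1052 and 1071 in limma on log2(FPKM + 1), on log2(FPKM + 0.1) and on all genes with a count. These settings move the median of all genes to between 0.19 and 0.24. The block gave 1699 and 1670 calls. Same-numbered libraries did not deviate together (r = -0.0908 across genes). With 2 libraries per strain, this correlation cannot show whether the libraries were handled as pairs.

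Of 862 values for 62 named genes under the alternatives, 720 kept direction and side of the threshold, 77 lost the call, 39 gained one and 26 turned sign, 0 of these for a gene called in the main result. With library totals and the 3 limma settings in the order above, BKA90DRAFT_133925 turned to 0.12, 0.11, 0.11 and 0.11, BKA90DRAFT_40884 to 0.021, 0.024, 0.025 and 0.024 and BKA90DRAFT_141510 to 0.049, 0.043, 0.046 and 0.043. With a library left out, log2 fold changes of the genes that turned sign ran from -0.085 to 0.36 for BKA90DRAFT_115977, -0.68 to 0.65 for BKA90DRAFT_117756, -0.056 to 0.77 for BKA90DRAFT_132755, -0.32 to 0.43 for BKA90DRAFT_133227, -0.27 to 0.025 for BKA90DRAFT_133925, -0.15 to 0.19 for BKA90DRAFT_135266, -0.072 to 0.47 for BKA90DRAFT_138380, -0.066 to 0.16 for BKA90DRAFT_139304, -0.037 to 0.45 for BKA90DRAFT_160004 and -0.026 to 0.38 for BKA90DRAFT_85079. The cause was not tested. Depth limits BKA90DRAFT_158840 and BKA90DRAFT_159462, at 0 to 9 counts per library.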
